A study of Mus musculus with 20 samples.

Results

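The step from late prometaphase I to metaphase I in mouse oocytes was followed through the mRNA bound to ribosomes. The comparison set the 2 ribosome-bound libraries of 8 h (metaphase I) against the 2 of 6 h (late prometaphase I), 4 of the 20 libraries of the study, over all 7543 genes of the ribosome-bound table. All groups came from C57BL/6 females aged 3 weeks whose oocytes carried the RiboTag, an HA tag on a ribosomal protein that Zp3-Cre switches on in growing oocytes. Every mouse received 5 IU of PMSG, a gonadotropin that stimulates follicle growth, and 44 h later the oocytes were stripped of cumulus cells and held in prophase I with 1 µM cilostamide, a phosphodiesterase inhibitor. They were then moved to medium without it, and 200 oocytes were taken per sample at 0, 2, 4, 6 or 8 h. Ribosomes were pulled down through the HA tag, and total RNA was taken alongside at each time. Whether the 2 replicates of a time were separate cultures or animals is not in the labels, and p-values therefore reflect no more than the spread among these libraries, which may be technical.

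A fully grown oocyte does not transcribe. It divides on stored mRNA, which is recruited to ribosomes or dropped from them as meiosis proceeds. Many stored mRNAs carry a cytoplasmic polyadenylation element in the 3' untranslated region, a short U-rich word bound by CPEB1, through which the poly(A) tail is lengthened and translation starts. Other mRNAs lose their tails through the CCR4-NOT deadenylase, which the adaptor BTG4 brings to maternal mRNA, and are later degraded.

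Between 6 h and 8 h most called changes in ribosome-bound mRNA were to lower values. In limma, 45 of 7543 genes (0.597%) were lower at 8 h and 7 (0.0928%) were higher at a Benjamini-Hochberg adjusted p under 0.05, so that 52 genes (0.689%) are referred to as called. Transcripts that rose include those of BTG4, the histone reader spindlin and the oocyte maturation protein Omt2b. Those that fell include 6 cytosolic ribosomal proteins, of which all but Rpl5 had values below 8 at 8 h, and 3 respiratory chain or ATP synthase subunits. CDK1, the spindle protein TACC3, and the maternal-effect proteins NPM2 and TLE6 were also among them. Of the 52 genes, 28 changed at least 2-fold, 27 of them down and 1 up. Over all genes the median log2 change was -0.01.

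**Figure D1:**
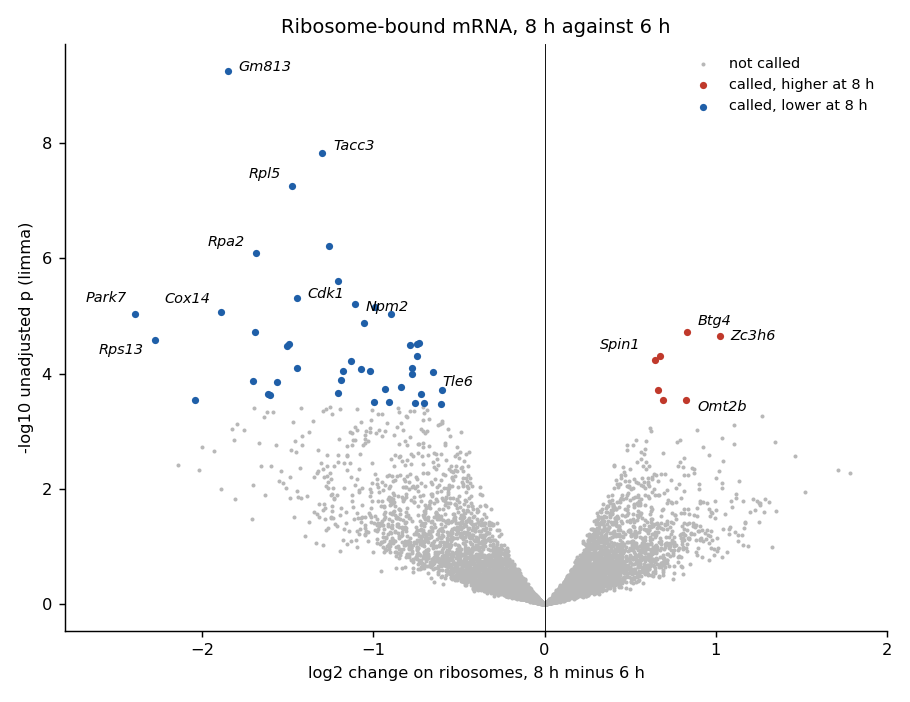
Change on ribosomes of every gene (log2, 8 h minus 6 h, horizontal axis) against its unadjusted p in limma (minus log10, vertical axis), with 2 libraries per time. Of the coloured genes past an adjusted p of 0.05, 45 lie to the left (lower at 8 h) and 7 to the right (higher at 8 h).

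The count rests on few libraries. Leaving out 6 h replicate 1 gave 3 calls, leaving out 6 h replicate 2 gave 11, leaving out 8 h replicate 1 gave 28, and leaving out 8 h replicate 2 gave 9. Only Gm813, Rpl5 and Tacc3 kept their calls under each of the 14 alternatives run. A count on an unadjusted p under 0.05 gave 348 genes higher (4.61%) and 636 lower (8.43%). At 8 h both libraries lay above both of 6 h in 22.6% of genes and below both in 23.9%. In every called gene the times did not overlap, which rests on the same values as the call and is no further support. With 2 libraries against 2, an exact permutation test of a single gene cannot give a two-sided p below 0.333. Values are scaled CPM (read counts relative to each library's total, times a factor of that library). They are relative, so that loss of an mRNA and gain of others cannot be told apart, and less RNA per cell would not show. Depth for the listed genes, inferred by taking 1 step of the values as 1 read, was 42984406 and 34222632 reads at 8 h, and 30524671 and 44943993 at 6 h. Pearson's r between replicates across genes was 0.971 at 8 h and 0.97 at 6 h. On the leading principal component (49.1% of the variance of the ribosome-bound libraries) the 8 h libraries lay at 35.2 and 44.3 and the 6 h libraries at 17.8 and 19.3. Of 18 defining oocyte transcripts 17 were listed, with Sohlh1 not listed. Of 28 granulosa and cumulus markers 5 were listed (Fshr, Cyp19a1, Nr5a2, Serpine2 and Esr2), with sums of 557 and 553 at 8 h and 489 and 485 at 6 h and no call. Of 21 blood, stroma and endothelium markers Pecam1 and Tek were listed, neither of them called.

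Some genes that rose carry the polyadenylation element near their 3' end. The called falls Rpl5, Ndufc2, Emg1 and Ciao1 carry it too and are not shown. The 4 protein-coding rises with the element in their last 100 annotated bases are shown first, and Plat, a classical target of cytoplasmic polyadenylation that did not pass the test, is added. Plat was the only uncalled gene of those searched by name that held it, and in Ccnb1, Mos, Dazl, Tpx2 and Cnot6l these letters were not in that window. Each line gives 30 bases of the mm10 plus strand, 5' to 3', from the GENCODE vM21 transcript models, with each element (TTTTAT or TTTTAAT) in capitals. The windows are chr9:51119797-51119826 for Btg4, chr9:78329555-78329584 for Omt2b, chr13:51152473-51152502 for Spin1, chr2:121016846-121016875 for Ccndbp1 and chr8:22782745-22782774 for Plat.
Btg4: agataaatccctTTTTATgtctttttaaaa
Omt2b: gggttttaacggTTTTATaataaataaaag
Spin1: tctgtaagtaatTTTTATaattatgatgta
Ccndbp1: TTTTATtaagaTTTTAATgatctcaataaa
Plat: gtatatttataTTTTAATctattttagttt
In Btg4 61 bases follow the element up to the annotated end of the transcript, in Spin1 56, in Omt2b 48 and in Ccndbp1 41, counted from the element nearest the end. Ccndbp1 and Omt2b hold 2 elements each in their last 100 bases, of which the line of Omt2b shows 1.

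Btg4 (ENSMUSG00000032056.9, chromosome 9, 51060901 to 51119875), whose product brings the CCR4-NOT deadenylase to maternal mRNA, had a normalised value on ribosomes of 1468 and 1642 at 8 h, against 929 and 821 at 6 h. The groups did not overlap, and the log2 change was 0.83 ± 0.14 (adjusted p 0.00963). In total RNA, in a table normalised separately, it stood at 1072 and 893 at 8 h, against 1027 and 1225 at 6 h, and those libraries overlapped. Its value on ribosomes was 385 and 460.0 at 0 h and 578 and 498 at 4 h, so that the 2 later intervals held most of its gain. The call was lost without either 6 h library or without 8 h replicate 2, with log2 changes of 0.74 to 0.92 over the 4 omissions (adjusted p 0.0336 to 0.135).

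Angel2 (ENSMUSG00000026634.16, chromosome 1, 190925112 to 190946962), a member of the CCR4-related family of nucleases, stood at 362 and 393 at 8 h, against 226 and 241 at 6 h, a change of 0.69 ± 0.15 (adjusted p 0.047). Zc3h6 (ENSMUSG00000042851.17, chromosome 2, 128967402 to 129018563), a CCCH zinc finger gene, had values of 362 and 368 at 8 h, against 169 and 189.6 at 6 h. Its change was 1.02 ± 0.18 (adjusted p 0.0105), and both of its 8 h libraries lay above every earlier library, of which the highest was the upper 6 h value. Neither gene has the element in its last 100 bases. Correcting for the length and GC content of transcripts ended both calls, with Angel2 at 0.59 (adjusted p 0.0952) and Zc3h6 at 0.88 (adjusted p 0.0534). Angel2 was also lost once libraries were centred on their medians.

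Spin1 (ENSMUSG00000021395.10, chromosome 13, 51100880 to 51152546) encodes spindlin, a reader of methylated histone H3 that is abundant in oocytes. Its values were 6220.4 and 6450.4 at 8 h, against 3803 and 4303 at 6 h, with a change of 0.65 ± 0.12 (adjusted p 0.0173). Earlier values had been 4688 and 5242 at 2 h and 4919 and 4576 at 4 h. After the length and GC correction it stood at 0.52 (adjusted p 0.0713). Omt2b (ENSMUSG00000038750.12, chromosome 9, 78327589 to 78329620), an oocyte maturation gene, had 453 and 498 at 8 h, against 280.1 and 256 at 6 h, a change of 0.83 ± 0.18 (adjusted p 0.047), and it had also risen between 2 h and 4 h (0.87, adjusted p 0.0343). Its near-identical neighbour Omt2a, chosen after its values were seen, was at 251 and 294 at 8 h, against 196 and 154 at 6 h and did not pass (0.64 (adjusted p 0.197)); reads of both may be divided between the copies.

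Ccndbp1 (ENSMUSG00000023572.16, chromosome 2, 121008403 to 121016904), a binding partner of D-type cyclins, had 1225 and 1244 at 8 h, against 757 and 799 at 6 h, a change of 0.66 ± 0.14 (adjusted p 0.0367). The lincRNA RP23-323L3.5 (ENSMUSG00000110001.1, chromosome 7, 46967711 to 46975911; C86187 in the annotation) had 1901 and 1816 at 8 h, against 1099.6 and 1234 at 6 h, a change of 0.67 ± 0.13 (adjusted p 0.0154). In both genes the 8 h libraries lay above those of 6 h without overlap. Calls of Angel2, Zc3h6, Spin1, Omt2b, Ccndbp1 and RP23-323L3.5 were each lost whichever of the 4 libraries was left out. Over those omissions the log2 change stayed between 0.56 (Spin1) and 1.10 (Zc3h6).

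**Figure D2:**
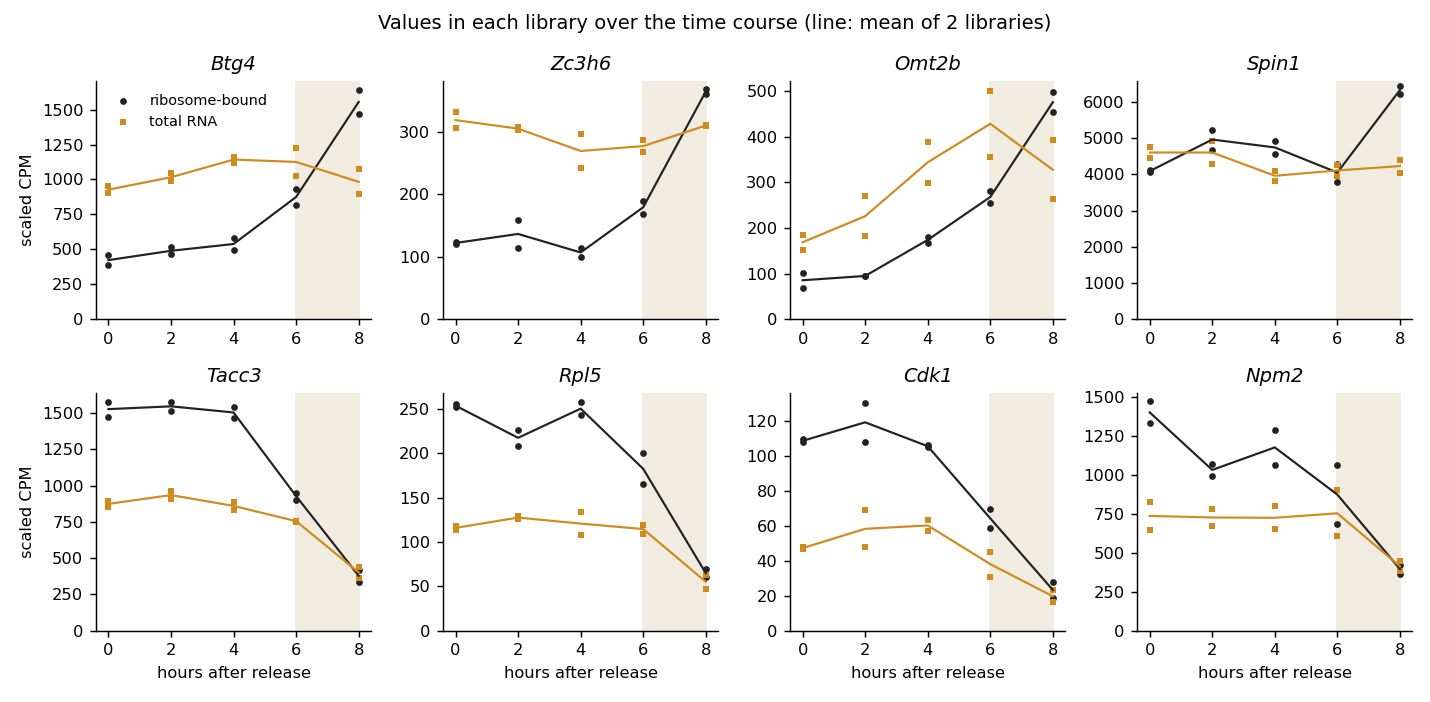
Scaled CPM (vertical axis) over hours after release from cilostamide (horizontal axis) for 4 genes that rose on ribosomes between 6 h and 8 h (top) and 4 that fell (bottom). Each point is a library, lines join the means of 2 libraries, black is ribosome-bound mRNA and orange total RNA, from tables normalised separately, and the shaded interval is 6 h to 8 h. Btg4 reached 1468 and 1642 on ribosomes at 8 h while its total RNA was 1072 and 893.

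The list named oocyte-restricted families was the group with most rises. Its members were chosen with earlier results of these data known, so its comparison with all genes is no independent support. Whether each member is restricted to oocytes was not tested, and Spin1 is described above only as abundant in them. Of 27 measured members, 3 rose (Spin1, Btg4 and Omt2b), against 0.0928% of all genes called higher. None fell at the threshold and 24 were not called, with a median change of 0.23 on ribosomes and -0.07 in total RNA. Btg4 and Omt2b are members of other lists as well. At an unadjusted p under 0.05, 11 members were higher, against 4.61% of all genes, and 4 were lower, against 8.43%. The lymphoma-associated Tcl1 family, whose members form a cluster of related genes, did not pass but lay close together (chosen after their values were seen). Tcl1 had 692 and 693 at 8 h, against 463 and 439 at 6 h, a change of 0.62 (adjusted p 0.0701). Tcl1b1, Tcl1b2, Tcl1b3 and Tcl1b4 changed by 0.58, 0.59, 0.60 and 0.61, with adjusted p from 0.144 to 0.191 and both 8 h libraries above both 6 h libraries in each. Tcl1b5 changed by 0.60 with a higher adjusted p of 0.389 in limma. Reads may be divided among these near-identical copies. Bcl2l10, an oocyte-abundant BCL2 relative, had 2870.4 and 3082 at 8 h, against 2218 and 2229 at 6 h (change 0.42 (adjusted p 0.171)).

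Of the lists, cytosolic ribosomal protein genes held the most falls. Of 49 measured, 6 fell, none rose and 43 were not called, against 0.597% of all genes called lower. The median change was -0.81 on ribosomes, and 43 of the 49 had both 8 h libraries below both 6 h libraries, against 23.9% of all genes. Their summed value was 628 and 589 at 8 h, against 1075 and 993 at 6 h. In total RNA 5 of 48 were called lower, with a median of -0.68. Across the earlier intervals of ribosome-bound mRNA the median was -0.22 from 0 h to 2 h, -0.24 from 2 h to 4 h and -0.36 from 4 h to 6 h. Correction for length and GC content gave a median of -0.55, centring gave -0.80, and leaving out single libraries gave -0.93 to -0.77.

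Rpl5 (ENSMUSG00000058558.12, chromosome 5, 107900502 to 107909005), the large-subunit protein that carries 5S rRNA, had 69.4 and 60.7 at 8 h, against 200.3 and 165 at 6 h, a change of -1.47 ± 0.16 (adjusted p 0.000137). It kept its call without each of the 4 libraries, with changes of -1.61 to -1.33 and adjusted p of 0.00104 to 0.0158. Its total RNA was 47.6 and 63.0 at 8 h, against 109.6 and 119.8 at 6 h, a change of -1.05 (adjusted p 0.0119). Rps13 (ENSMUSG00000090862.3, chromosome 7, 116331505 to 116334195), of the small subunit, had 3.37 and 2.43 at 8 h, against 17.5 and 18 at 6 h, a change of -2.27 ± 0.40 (adjusted p 0.0113). Its call was lost without either 6 h library or without 8 h replicate 2. Rps14, Rps4x, Rpl14 and Rpl39 also fell, with changes of -2.04, -1.70, -1.62 and -1.60, and their values at 8 h were all below 8. At 0 h their means had been 24.7, 40.1, 39.3 and 34.4. If low genes were removed before deposit, they and Rps13 may be listed only through such earlier values. Their falls are then not independent of how the genes came to be listed. Each of these 4 lost its call without either 6 h library or without 8 h replicate 2, and all but Rpl14 without 8 h replicate 1. Raising the pseudocount to 5 ended the same 4 calls, with changes of -0.99 for Rps14, -1.12 for Rps4x, -1.18 for Rpl14 and -1.20 for Rpl39, so that the size of these falls depends on the pseudocount. Fitting only the 4 libraries compared also ended all 4 (adjusted p 0.0637 to 0.121 in limma), as did the length and GC correction with the replicate block. Other settings ended some of them, the replicate block alone those of Rps14, Rpl14 and Rpl39. The length and GC correction alone ended those of Rpl14 and Rpl39, and centring that of Rps14. Reads of ribosomal protein genes can be shared with their many processed pseudogenes, so the size of each fall is uncertain. The highest member, Rps15, had 9.48 and 13.8 at 8 h, against 7.77 and 6.50 at 6 h and was not called (0.62 (adjusted p 0.564)).

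Nuclear genes for oxidative phosphorylation also had lower values at 8 h. Of 61 measured, 3 fell (Sdhd, Atp5a1 and Ndufc2), against 0.597% of all genes called lower, none rose and 58 were not called. The median was -0.89 on ribosomes and -0.45 in total RNA. At an unadjusted p under 0.05, 31 were lower and 0 higher, against 8.43% and 4.61% of all genes. Their summed value was 1825 and 1623 at 8 h, against 2586 and 2289 at 6 h. After the length and GC correction the median was -0.61, and leaving out single libraries gave -0.93 to -0.71.

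Atp5a1 (ENSMUSG00000025428.15, chromosome 18, 77773729 to 77782869), the catalytic-core alpha subunit of ATP synthase, had 194 and 160.1 at 8 h, against 385 and 348 at 6 h, a change of -1.05 ± 0.18 (adjusted p 0.00756). Sdhd (ENSMUSG00000000171.4, chromosome 9, 50596357 to 50603812), a membrane anchor of succinate dehydrogenase, had 30.7 and 22.6 at 8 h, against 66.9 and 55.2 at 6 h, a change of -1.18 ± 0.23 (adjusted p 0.0217), beside a total RNA change of -1.44 (adjusted p 0.00355). Ndufc2 (ENSMUSG00000030647.8, chromosome 7, 97400003 to 97407802), of complex I, had 12.3 and 9.78 at 8 h, against 28.6 and 41.2 at 6 h, a change of -1.56 ± 0.32 (adjusted p 0.0291). In all 3 genes the times did not overlap. Atp5a1 and Sdhd lost their calls without either 6 h library or without 8 h replicate 2, Ndufc2 without any of the 4. The length and GC correction left Sdhd at -0.99 (adjusted p 0.0534) and Ndufc2 at -1.27 (adjusted p 0.0657). Cox14 (ENSMUSG00000023020.2, chromosome 15, 99725618 to 99728136), an assembly factor of cytochrome c oxidase outside the list, had 7.47 and 13 at 8 h, against 46.5 and 33.0 at 6 h. Its change of -1.89 ± 0.31 (adjusted p 0.00592) was lost without 6 h replicate 1 or without 8 h replicate 1. If low genes were removed before deposit, Cox14 and Ndufc2 too may be listed only through their higher earlier values. Their falls are then not independent of that listing.

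Transcripts of the mitochondrial genome gave no call. Of 9 measured, 0 passed, also at an unadjusted p under 0.05 in limma, and the median was 0.26. That median ran from -0.29 to 0.74 when single libraries were left out, with the lower end without 8 h replicate 1. They made up 0.272% and 0.126% of the ribosome-bound values at 8 h, against 0.132% and 0.191% at 6 h, so that the 6 h values lay between the 8 h values. In total RNA their share was 2.868% and 2.337% at 8 h, and 2.725% and 2.536% at 6 h. Whether the small share in the pull-down was bound to tagged ribosomes or carried over was not tested. Among the 9 are mt-Rnr1 and mt-Rnr2, which are rRNAs and not mRNAs.

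Proteasome genes had 1 fall among 33 measured and a median of -0.49, and 17 were lower at an unadjusted p under 0.05, with 0 higher. Of all genes 0.597% were called lower, and on the unadjusted count in limma 8.43% were lower and 4.61% higher. Psma6 (ENSMUSG00000021024.14, chromosome 12, 55384222 to 55418454), an alpha subunit of the core particle, had 7.87 and 11.3 at 8 h, against 38.1 and 28.1 at 6 h, a change of -1.69 ± 0.29 (adjusted p 0.00963). That call was lost without 6 h replicate 1 or without 8 h replicate 1. If low genes were removed before deposit, Psma6 too may be listed only through its higher earlier values. Mitochondrial ribosomal protein genes had no call among 44 and a median of -0.33, with 2 higher and 6 lower at an unadjusted p under 0.05. Cytosolic chaperones had none among 56 (median -0.26, 1 higher and 16 lower on the same unadjusted count). Translation initiation and elongation factors likewise had none among 51 (median -0.13, 1 higher and 9 lower).

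Aminoacyl-tRNA synthetases had 1 call among 25, a fall, against 0.597% of all genes called lower, and a median of -0.16. The called gene was Rars (ENSMUSG00000018848.4, chromosome 11, 35808381 to 35834506), which charges arginine tRNA, with 219 and 226 at 8 h, against 389 and 374 at 6 h and a change of -0.77 ± 0.16 (adjusted p 0.023). Omitting any of the 4 libraries ended the call. Splicing factors (46 measured, median -0.07), ubiquitin-conjugating enzymes (25, median 0.04) and endoplasmic reticulum genes (39, median -0.03) had no call. Median changes of those 3 lists differed from that of all genes by less than 0.1 on the log2 scale.

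**Figure D3:**
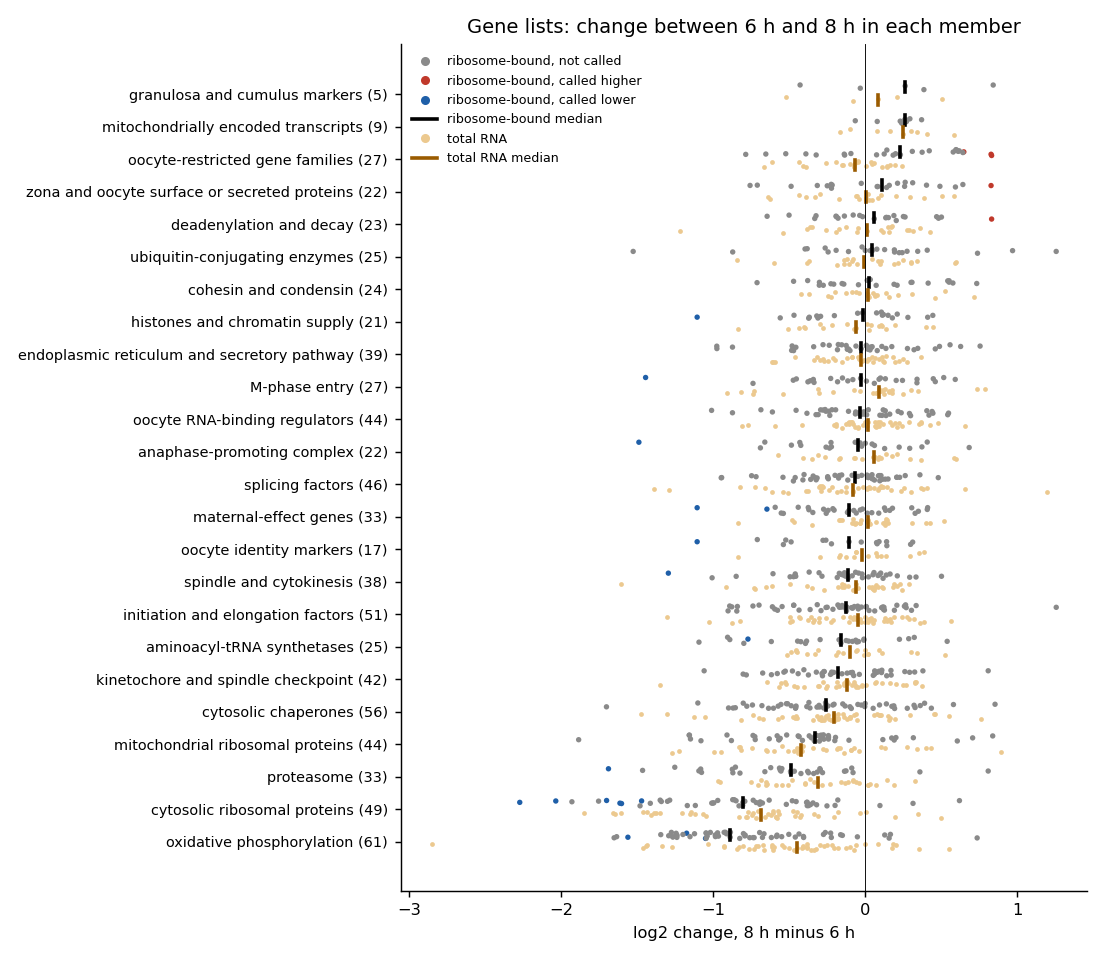
Log2 change (8 h minus 6 h, horizontal axis) of each member of the gene lists, with the number of measured members in brackets. In each pair of rows the upper is ribosome-bound mRNA (grey, red or blue points, black median) and the lower total RNA (pale orange, brown median). Oxidative phosphorylation and cytosolic ribosomal proteins have the lowest medians on ribosomes, -0.89 and -0.81.

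Among genes of the division itself, a few named genes fell within lists that otherwise held no call, where 0.597% of all genes were called lower. Tacc3 (ENSMUSG00000037313.16, chromosome 5, 33658128 to 33678995), which binds spindle microtubules with clathrin and the polymerase chTOG, had 419 and 338 at 8 h, against 902 and 952 at 6 h. The change was -1.30 ± 0.13 (adjusted p 5.68e-05), and it held without each of the 4 libraries (-1.45 to -1.14, adjusted p 0.000179 to 0.00308). At 0, 2 and 4 h the values had been 1475 and 1578, 1514 and 1577 and 1467 and 1540.0, so that 6 h and 8 h were the times with lower values. Its total RNA also fell, to 442 and 362 at 8 h, against 752 and 758 at 6 h, a change of -0.92 (adjusted p 0.00289). Of 38 spindle and cytokinesis genes Tacc3 was the only one called, and the list's median was -0.12. Clta (ENSMUSG00000028478.18, chromosome 4, 44004452 to 44032846), a clathrin light chain, had 42.1 and 34.2 at 8 h, against 80.1 and 75.7 at 6 h, a change of -1.02 ± 0.20 (adjusted p 0.0217), lost without any of the 4 libraries and after the length and GC correction (-0.75 (adjusted p 0.0523)).

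Cdk1 (ENSMUSG00000019942.12, chromosome 10, 69335146 to 69352938), the kinase of M-phase, had 28.1 and 18.6 at 8 h, against 59.1 and 69.6 at 6 h, a change of -1.45 ± 0.22 (adjusted p 0.00521). Leaving out either 6 h library or 8 h replicate 2 ended the call (-1.73 to -1.16, adjusted p 0.0051 to 0.093). In total RNA it stood at 16.3 and 23.2 at 8 h, against 31.1 and 45.3 at 6 h, which did not pass (-0.91 (adjusted p 0.177)). Its difference from total RNA, tested directly, did not pass either (-0.53, adjusted p 0.726 in limma). Its partner Ccnb1, cyclin B1, had 474 and 549 at 8 h, against 391 and 416 at 6 h and was not called (0.34 (adjusted p 0.355)), although both 8 h libraries lay above both of 6 h. Of 27 M-phase entry genes Cdk1 was the only call, with a median of -0.03. Ccna2 (0.59, adjusted p 0.129) and the CDK1-inhibiting kinase Wee2 (0.46, adjusted p 0.138), chosen after their values were seen, were the nearest to passing above 0. Mos, which starts the MAPK cascade, had 379 and 381 at 8 h, against 366 and 349 at 6 h (0.09 (adjusted p 0.877)).

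Anapc7 (ENSMUSG00000029466.11, chromosome 5, 122421693 to 122444912), a scaffold subunit of the anaphase-promoting complex, had 15.9 and 13.6 at 8 h, against 44.1 and 42.1 at 6 h, a change of -1.49 ± 0.27 (adjusted p 0.0113). Its total RNA, 27.3 and 26.9 at 8 h, against 34.4 and 33.4 at 6 h, did not pass (-0.31 (adjusted p 0.681)). The difference between these changes, tested directly, did not pass either (-1.18, adjusted p 0.422 in limma). The call on ribosomes was lost without either 6 h library or without 8 h replicate 2. Among 22 genes of the complex and its regulators it was the only call, with a list median of -0.05. Cdc20, the activator that works at metaphase, had 118 and 142 at 8 h, against 129 and 130.1 at 6 h, and these libraries overlapped.

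Kinetochore and checkpoint genes had no call among 42 (median -0.18). At an unadjusted p under 0.05 in limma 0 were higher and 8 lower, against 4.61% and 8.43% of all genes. Cohesin and condensin genes had none among 24, and their median of 0.02 turned to -0.13 after the length and GC correction. Smc4, the condensin core subunit, had 651 and 555 at 8 h, against 587 and 606 at 6 h, with overlap, and the spindle assembly factor Tpx2 had 783 and 825 at 8 h, against 846 and 918 at 6 h (-0.13 (adjusted p 0.755)). Rpa2 (ENSMUSG00000028884.14, chromosome 4, 132768332 to 132778752), a subunit of the single-strand DNA binding protein RPA, fell, with 31.3 and 23.6 at 8 h, against 97.8 and 81.8 at 6 h. Its change of -1.68 ± 0.23 (adjusted p 0.00121) was lost only without 6 h replicate 1 (adjusted p 0.0051 to 0.0648 over the 4 omissions).

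Maternal-effect genes, whose products the embryo needs, had 2 falls and no rise among 33, with a median of -0.11, where 0.597% of all genes were called lower. Npm2 (ENSMUSG00000047911.5, chromosome 14, 70647302 to 70659244), the oocyte nucleoplasmin that organises chromatin, had 367 and 425 at 8 h, against 1065 and 683 at 6 h, a change of -1.11 ± 0.17 (adjusted p 0.00581). Its 6 h libraries lay farther apart than its 8 h libraries, and the call was lost without 6 h replicate 1 or without 8 h replicate 1. Its total RNA was also called lower (-0.84, adjusted p 0.03 in limma). Tle6 (ENSMUSG00000034758.12, chromosome 10, 81590904 to 81601073), a member of the subcortical maternal complex, had 1239 and 1266 at 8 h, against 2014 and 1914 at 6 h, a change of -0.65 ± 0.13 (adjusted p 0.0217), while its total RNA was 833 and 794 at 8 h, against 853 and 758 at 6 h (0.02 (adjusted p 0.97)). Any of the 4 omissions ended that call, as did the length and GC correction (-0.51 (adjusted p 0.0856)). The difference of Tle6 from its total RNA change was not called. Npm2 is also a member of the histone and chromatin supply list, where it was the only call among 21 (median -0.02).

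Egg coat and secreted protein genes had 1 rise (Omt2b) and no fall among 22, with a median of 0.11, where 0.0928% of all genes were called higher. Zp3, a zona protein gene, had 1664 and 1317 at 8 h, against 2457 and 2393 at 6 h and missed the threshold (-0.71 (adjusted p 0.0517)). With a pseudocount of 0.5, with a mean of at least 20 or with only the 4 libraries fitted, it passed (adjusted p 0.0491, 0.0363 and 0.0143). Zp2 had 1473 and 1348 at 8 h, against 2020.3 and 1938 at 6 h (-0.49 (adjusted p 0.0701)). In both zona genes the times did not overlap. Plat, tissue plasminogen activator, had 4728 and 4529 at 8 h, against 3088 and 3516 at 6 h, a change of 0.49 (adjusted p 0.215), also without overlap and not called.

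In the lists of RNA regulators Btg4 was the only call. Deadenylation and decay genes had 1 rise (Btg4) among 23, against 0.0928% of all genes called higher. Their median of 0.06 was -0.04 after the length and GC correction. Cnot6l, a catalytic subunit of the deadenylase, had 1053 and 1092 at 8 h, against 954 and 1001 at 6 h (0.13 (adjusted p 0.748)). Of 44 oocyte RNA-binding regulators none was called (median -0.03). At an unadjusted p under 0.05 in limma 3 were higher and 6 lower, against 4.61% and 8.43% of all genes. Dazl, which activates translation through its own U-rich sites, had 573 and 596 at 8 h, against 428 and 529 at 6 h (0.30 (adjusted p 0.417)). Of 4 listed stress genes none was called.

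Several falls belonged to none of the lists and are named here after their values were seen, unless the rule named them. Gm813 (ENSMUSG00000075002.1, chromosome 16, 58613675 to 58616978), an unnamed protein-coding model, had the smallest p, with 81.7 and 101 at 8 h, against 361 and 299 at 6 h and a change of -1.85 ± 0.15 (adjusted p 4.17e-06). It kept the call without each of the 4 libraries (adjusted p 3.93e-05 to 0.000717), and its total RNA changed by -0.93 (adjusted p 0.0123). Igbp1 (ENSMUSG00000031221.7, chromosome X, 100494291 to 100516125), which binds the catalytic subunit of phosphatase PP2A, had 74.8 and 82.0 at 8 h, against 197 and 180.4 at 6 h, a change of -1.26 ± 0.17 (adjusted p 0.00117), lost only without 6 h replicate 1. Park7, the oxidative stress protein DJ-1, had 4.43 and 2.49 at 8 h, against 23.0 and 20.8 at 6 h, a change of -2.39 ± 0.39 (adjusted p 0.00592) that was -1.68 with a pseudocount of 5. Without either 6 h library or without 8 h replicate 2 that call was lost. If low genes were removed before deposit, Park7 too may be listed only through its higher earlier values. Its fall is then not independent of how it came to be listed.

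Ubiquitin and ribosome-making genes were also among the falls. Ubb, a polyubiquitin gene, had 136 and 114 at 8 h, against 318 and 261 at 6 h, a change of -1.21 ± 0.18 (adjusted p 0.00307), lost without 6 h replicate 1 or without 8 h replicate 2. Uchl1, a deubiquitinase abundant in oocytes, had 938 and 808 at 8 h, against 1621 and 1314 at 6 h, a change of -0.75 ± 0.14 (adjusted p 0.0154). After the length and GC correction Uchl1 stood at -0.48 (adjusted p 0.142), and it was lost without either 6 h library or without 8 h replicate 2. Emg1, an rRNA methyltransferase, and Dcaf13, an adaptor of CUL4 ligases that also acts in rRNA processing, changed by -1.5 ± 0.27 (adjusted p 0.0113) and -1.45 ± 0.28 (adjusted p 0.0214). Emg1 lost its call without any of the 4 libraries, and Dcaf13 without all but 8 h replicate 1.

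Metabolic enzymes among the falls were the uridine phosphorylase Upp1 (-1.20), the cytosolic aconitase Aco1 (-1.0), the lysine-degrading enzyme Aass (-0.89) and the inositol phosphate kinase Ippk (-0.75). RNA-handling genes were the splicing factors Zmat2 (-1.13) and Puf60 (-0.76) and the La protein gene Ssb (-0.61). Further falls were in Ciao1 (-1.19), of iron-sulfur assembly, Mbl2 (-1.07), a lectin, Zfp839 (-0.93), the germ-cell kinase gene Stk31 (-0.91), Rasa4 (-0.83), which acts on Ras, and Rab3gap1 (-0.77). Their adjusted p ran from 0.00592 (Aass) to 0.0491 (Ssb). Each of these 13 lost its call without at least 3 of the 4 libraries, 6 h replicate 1 always among them. The length and GC correction ended the calls of Upp1, Aco1, Zfp839, Puf60 and Ssb, and centring those of Aco1, Stk31, Puf60 and Ssb. Upp1, low at 8 h (10.5 and 9.41), may be listed only through its higher earlier values. Aco1 and Rab3gap1 were at 0.27 and 0.18 in total RNA, the other side of 0. Their differences from total RNA, -1.27 and -0.96, did not pass (adjusted p 0.199 for each in limma).

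The last 6 falls were F-box genes of a single tandem array on chromosome 9, looked at together after their values were seen. Of 15 Fbxw members of that array in the table, all had a change below 0, against 3808 of all 7543 genes. Called were 6, against 0.597% of all genes called lower: Fbxw15 (-0.99), Fbxw21 (-0.79), Fbxw24 (-0.73), Fbxw20 (-0.72), Fbxw16 (-0.70) and Fbxw18 (-0.60). Fbxw15 (ENSMUSG00000074060.10, chromosome 9, 109552602 to 109568262) had 211 and 166 at 8 h, against 375 and 369.6 at 6 h (adjusted p 0.00592). Fbxw24, the most abundant of the 6 by value, had 1140.1 and 1343 at 8 h, against 2149 and 1969 at 6 h. The nearest to 0 was Fbxw22 with 473 and 444 at 8 h, against 487 and 482 at 6 h (-0.08 (adjusted p 0.887)). All 6 calls were lost without 6 h replicate 1 or without 6 h replicate 2. The length and GC correction ended those of Fbxw24, Fbxw20, Fbxw16 and Fbxw18, and centring those of Fbxw20 and Fbxw16. Uncalled members passed under single settings, Fbxw27 with a mean of at least 20 (adjusted p 0.0468), and Fbxw26 and Fbxw13 with only the 4 libraries fitted (adjusted p 0.0431 and 0.0395). Reads of the array can be divided among its near-identical copies, so its members are not independent.

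Total RNA of the same interval was asked next. In the separately normalised total RNA table, 39 of 7917 genes (0.493%) were called, 4 higher (0.0505%) and 35 lower (0.442%). Of the 45 falls on ribosomes, 42 also had a total RNA change below 0, against 50.1% of all genes in both tables, and 10 were called lower there. Their median was -1.13 on ribosomes, the measure that chose them, and -0.59 in total RNA. Of the 7 rises, 2 had a total RNA change below 0 and none was called there, with a median of 0.04. The 10 genes called in both were 19.2% of the ribosome-bound calls and 25.6% of the total RNA calls. They were Tacc3, Sdhd, Rps4x, Ubb, Rpl5, Rpa2, Gm813, Rpl39, Npm2 and Atp5a1, all lower in both. Across the 7346 genes in both tables the 2 sets of log2 changes had a Pearson r of 0.254, as a description across genes; whether both RNA kinds of a letter came from the same oocytes is not in the labels. Leaving out total RNA libraries gave 6 calls (6 h replicate 2 left out), 15 (6 h replicate 1) or 91 (8 h replicate 2), and fitting only the 4 libraries gave 0 in limma, with 641 at an unadjusted p under 0.05.

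**Figure D4:**
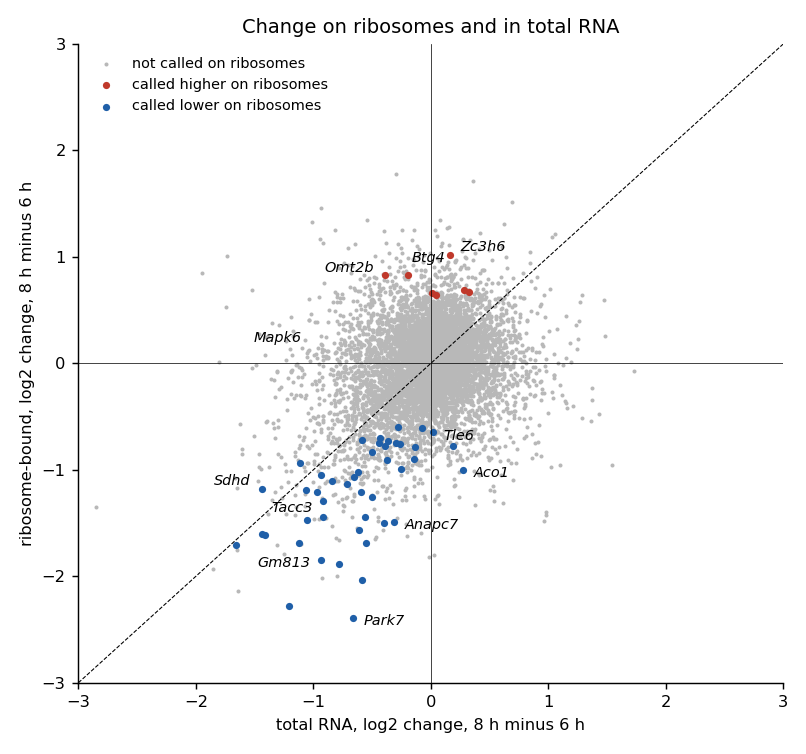
Log2 change (8 h minus 6 h) in total RNA (horizontal axis) against that on ribosomes (vertical axis) for genes in both tables, with 2 libraries per time and RNA kind; the dashed line marks equal change. Colours mark calls made on the vertical axis, so that their side of the line follows largely from that choice; along the horizontal axis 42 of the 45 blue genes lie below 0.

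A difference between the 2 RNA kinds was called in 2 of 7346 genes (0.0272%), both with the higher change on ribosomes. No gene was called with a lower change on ribosomes than in total RNA, the called falls included. For Btg4 the ribosome-bound change exceeded that of total RNA by 1.03 ± 0.19 (adjusted p 0.0459). For Mapk6, an atypical MAP kinase, the difference was 1.15 ± 0.21 (adjusted p 0.0459). Mapk6 had 215 and 257 at 8 h, against 219.7 and 219 at 6 h on ribosomes (0.10 (adjusted p 0.856)) and 109.8 and 121 at 8 h, against 221 and 261 at 6 h in total RNA (-1.05 (adjusted p 0.00355)), so that its total RNA fell while its ribosome-bound value overlapped. Both differences were lost once libraries were centred and after the length and GC correction. Leaving out single libraries gave 0 calls, or 1 without ribosome-bound 6 h replicate 2 and 1 without total RNA 8 h replicate 2. At an unadjusted p under 0.05, 304 genes (4.14%) had a higher and 281 (3.83%) a lower change on ribosomes than in total RNA.

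To ask whether the step differed from an earlier one of the same length, the change from 6 h to 8 h was set against that from 2 h to 4 h, which shares no library with it. The difference was called in 8 of 7543 genes (0.106%), 1 higher (0.0133%) and 7 lower (0.0928%), and single omissions gave 1 (without 2 h replicate 1 or 6 h replicate 1) to 10 (without 4 h replicate 2). Zc3h6 rose in the later step and changed by -0.34 in the earlier, a difference of 1.36 ± 0.25 (adjusted p 0.0451). Gm813 (-2.04 ± 0.22 (adjusted p 0.000189)), Rpl5 (-1.68 ± 0.23 (adjusted p 0.00439)), Rpa2 (-1.89 ± 0.32 (adjusted p 0.0252)), Igbp1 (-1.38 ± 0.24 (adjusted p 0.0252)) and Tacc3 (-1.26 ± 0.19 (adjusted p 0.00777)) fell in the later step, with changes between -0.04 and 0.21 in the earlier.

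In Rnf219 and E330021D16Rik the earlier step was the one called. Rnf219, a RING finger gene, rose by 1.23 between 2 h and 4 h and was at 317 and 371 at 8 h, against 336 and 332 at 6 h (difference -1.20 ± 0.22 (adjusted p 0.0451)). E330021D16Rik, an oocyte-restricted gene, rose by 1.25 in that earlier step and was at 2687 and 3598 at 8 h, against 2849 and 2579 at 6 h (difference -1.05 ± 0.20 (adjusted p 0.0451)). In both genes the 8 h and 6 h libraries overlapped. Of the 45 genes that fell between 6 h and 8 h, the median change was -0.13 from 0 h to 2 h, -0.02 from 2 h to 4 h and -0.39 from 4 h to 6 h. The interval from 4 h to 6 h shares its 6 h libraries with the step described. For the 7 rises the same medians were 0.22, 0.13 and 0.62.

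What the called genes share was described without a test. Called falls had a median transcript length of 1512 bases and called rises 2415, against 3299 for all genes. In 5 groups of about equal size by length, the median change on ribosomes was -0.21 in the shortest (up to 1874 bases), -0.04, 0.01 and 0.05 in the next 3, and 0.07 in the longest. Total RNA had medians of -0.17, -0.05, 0.02, 0.04 and 0.07 over the same groups. The shortest group held 27 of the 45 falls and the longest 0. After correction for length and GC content 37 genes were called, 33 of them among the 52. Length moves with the falls, and its part in them was measured only through that correction.

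The polyadenylation element was searched as TTTTAT or TTTTAAT, on the sense strand only, in the last 100 bases of the annotated 3' untranslated region, leaving out regions shorter than that. It was present in 4 of 6 called rises and 4 of 34 called falls (Rpl5, Ndufc2, Emg1 and Ciao1), against 21.6% of 6952 genes. On the unadjusted count it was present in 138 of 332 genes higher at 8 h (41.6%) and in 51 of 562 lower (9.07%). For 3' untranslated regions of 100 to 499 bases the shares were 55.6% of the higher and 8.54% of the lower genes, and for 1500 bases or more 37.6% and 11.4%. Base composition differed as well, with a median A+T content of the window of 69% in the higher, 61% in the lower and 66% in all genes. In windows of at least 65% A+T the element was in 51.5% of the higher and 17.1% of the lower genes, against 31.7% of all such genes. The reversed words TATTTT and TAATTTT, of the same composition, were in 35.2% of the higher and 13.9% of the lower genes, against 22.9% of all. A match is a word in a sequence and not a measured site.

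**Figure D5:**
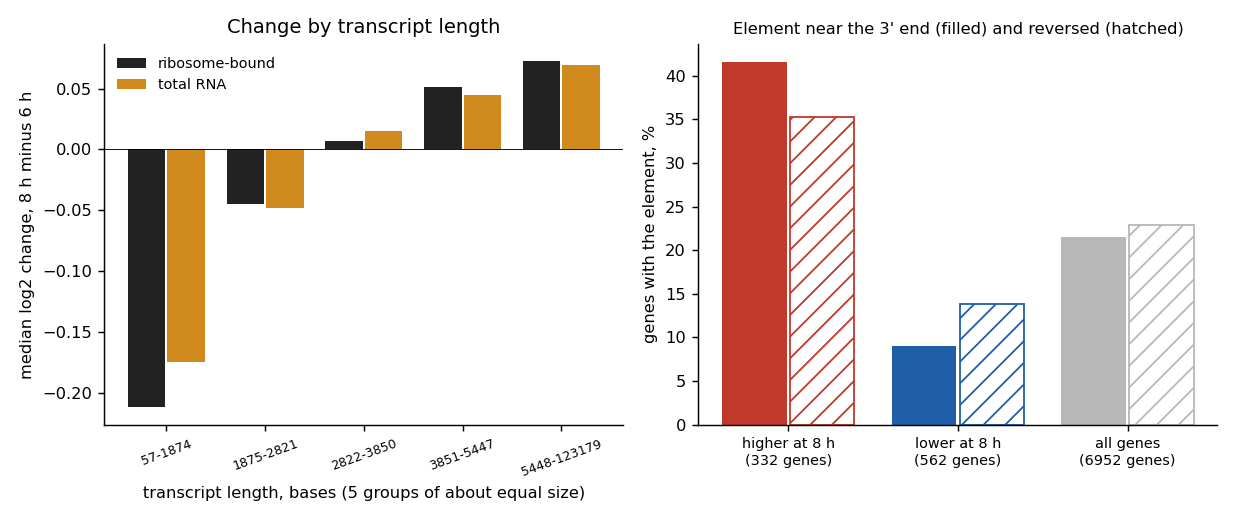
Left, median log2 change (8 h minus 6 h) in 5 groups of genes by transcript length in bases, ribosome-bound in black and total RNA in orange, with medians from -0.21 to 0.07 on ribosomes. Right, percentage of genes with the element (filled) or its reversed words (hatched) in the last 100 bases, for genes higher or lower at 8 h at an unadjusted p under 0.05 and for all genes: 41.6%, 9.07% and 21.6% for the element.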

How the data were processed

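The authors deposited 1 table of ribosome-bound mRNA and 1 of total RNA, a signal on a CPM-like scale: CPM multiplied by a factor that differs between libraries, with library totals of 968768 to 1052767. Per the submitters' processing notes, reads were handled with Trimmomatic 0.36, FastQC, HISAT2, HTSeq, SAMtools, limma and edgeR on mm10. Strand and poly(A) selection: not given in the sources used here. All values of a library (100%) were multiples of 1 step within 0.01, and taking a step as 1 read gives a depth of 27571236 to 51714900 in listed genes. That a step is 1 read was not established, and no count test was run. Plain CPM had been assumed in the plan, and its test was kept. Groups came from titles, with letters as replicates; the description field says ribosome-bound for total RNA too, and the titles were followed.

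The test used log2(value + 1) and required a value of 1 in 2 or more libraries (all 7543 and 7917 genes passed). At most 12 genes of a library had a value below 1, so low genes seem to have been removed before deposit. A gene low at 8 h may then be listed only through its higher earlier libraries. Time was fitted in limma 3.58.1 (R 4.3.3) over all 10 libraries of an RNA kind, with empirical Bayes moderation and a trend; ± is limma's standard error. Tests were two-sided, at a Benjamini-Hochberg adjusted p of 0.05 over all genes. The fit was checked on simulated data. Genes were matched by ID to GENCODE vM21, with 5843 of 8114 IDs of the same version, 2264 of another and 7 not found. Genes, lists and tests were chosen with earlier results of these data known. Named were the 10 largest changes each way with a mean of at least 20 and no overlap, leaving out unnamed models, up to 2 called members of each of 26 lists, a panel of 12 genes, and the 3 largest each way of the other contrasts; other names were chosen after their values were seen. Alternatives covered pseudocounts of 0.5 and 5, filters, centring, a replicate block, length and GC correction, and omission of libraries.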

Additional observations from a re-analysis of the deposited data

Results flagged for a closer look

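The ribosome-bound and total RNA changes differed in 2 genes by a test of the difference itself. The difference was 1.03 for Btg4 and 1.15 for Mapk6, on the log2 scale.

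The change from 6 h to 8 h differed from that from 2 h to 4 h in 8 genes, again by a test of the difference. It was 1.36 for Zc3h6, -2.04 for Gm813, -1.89 for Rpa2, -1.68 for Rpl5, -1.38 for Igbp1, -1.26 for Tacc3, -1.20 for Rnf219 and -1.05 for E330021D16Rik. Once libraries were centred on their medians this difference was called in 5 genes, all lower, and the difference from total RNA in 0 in limma, with 580 at an unadjusted p under 0.05.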

How the results depend on the processing

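The 52 ribosome-bound calls became 101 with a mean of at least 20 (11 up, 90 down), 92 with only the 4 libraries fitted (26 up, 66 down), 28 with the length and GC correction and the replicate block together, and 3 to 28 when single libraries were left out. Pseudocounts, centring, no filter, length and GC alone and the added omission of 4 h replicate 1 (chosen after seeing the data, since it stands apart) gave 37 to 61. The replicate block gave 36. Letters give only a shared number: same-letter libraries of 8 h and 6 h deviated with a correlation of -0.07.

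Total RNA calls (39) became 22 with length and GC, 20 with the block added, 0 with only the 4 libraries (limma; 641 at an unadjusted p under 0.05), and 6 to 91 when single libraries were left out. The 2 differences from total RNA became 0 when centred, with the replicate block, with the block by oocyte sample, or with length and GC, with or without the block (550 to 600 at an unadjusted p under 0.05 in limma), and 0 to 1 when single libraries were left out. The 8 differences from the earlier step became 20 with a mean of at least 20, 5 when centred, 3 with the block, 4 with length and GC, 3 with both, and 1 to 10 when single libraries were left out.

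Among genes, signs turned in 3 uncalled ones. Cdc20 became 0.17 with length and GC, with or without the block, 0.0096 when centred, and -0.13 to 0.13 over single omissions (0.0046 without 6 h replicate 2). Smc4 became -0.14 with length and GC, with or without the block, -0.01 without 6 h replicate 1 and -0.10 without 8 h replicate 1, and Cnot6l -0.043 with length and GC, with or without the block. Over the 52 called genes and the 10 uncalled genes of the panel, 595 values under alternatives kept direction and side, 258 lost the call and 3 gained it, all in Zp3; the causes were not tested. The planned edgeR and DESeq2 tests on whole reads were not run. With 2 libraries a time, a lone remaining library is assumed to vary like the other times.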
